A study of Mus musculus with 21 samples.

Results

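The contractile and smooth-muscle-type genes described here are 10 rows of a normalized gene count table with 34478 rows, selected by the symbols Acta2, Actg2, Tagln, Cnn1, Cnn2, Cald1, Tpm1, Tpm2, Myl9 and Vim. The table covers 6 primary cell lines (#3, #4, #6, #7, #9 and #10), each grown from a pancreatic ductal adenocarcinoma (PDAC) of a different mouse. All samples, parental cells included, shared 1 genotype, which includes Ptf1awt/Cre, driving Cre from the Ptf1a locus in the pancreas, and Trp53loxP/loxP, which Cre deletes. Parental cells (6 samples) had not met the drug, and Resistant cells (6 samples) grew in trametinib, an inhibitor of the kinase MEK, at 100 times its IC50. P5 (3 samples, lines #3, #7 and #9) and P12 (6 samples) are resistant cells returned to drug-free medium for 5 and 12 passages. For P5 of lines #7 and #9, another label gives 12 passages. There was 1 library per line and state, so the 6 lines are the replicates. Line-by-line differences, and a fit with a term for the cell line, compared each line with itself, while the fit without that term did not. Animal age was not given in the sources used here.

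In smooth muscle, filaments of actin slide along myosin when the myosin regulatory light chain is phosphorylated. Calponins, caldesmon and tropomyosins sit on the actin filament and regulate this interaction, and transgelin binds and bundles it. The smooth muscle forms of these proteins are made by vascular and visceral muscle, by pericytes and by activated fibroblasts, and many carcinoma cells express part of the set when they take on a mesenchymal shape. Their genes are classical targets of serum response factor (SRF), which binds a CArG box, and its cofactors of the myocardin family, some of which respond to free actin. MEK works through a competing branch, in which ERK phosphorylates the ternary complex factors, a different group of SRF partners.

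Acta2, Tagln, Cnn1 and Cald1 were higher in the resistant than in the parental sample of all 6 lines, Cnn1 in line #9 by a difference of 0.008 on the log2 scale that counting cannot resolve. Tagln, Cnn1 and Cald1 passed the test when the cell line entered the fit as a block (the lines compared with themselves), and none of the 10 passed without it. Tpm2 and Vim were lower in 5 of 6 lines and did not pass in either fit. After drug withdrawal the lines parted: Acta2, Tagln and Cald1 were well above the parental level in lines #3 and #4 and near or below it in lines #7 and #9, with the exception of Tagln in line #7 (1.82 above on the log2 scale). P12 cells of lines #6 and #10 were above it by 4.45 and 3.92 for Acta2 and by 1.13 each for Tagln. For Cald1 they were above it by 1.20 and 0.44. Lines #3 and #4 were also the lines from male mice, and the part of sex in this split was not tested.

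Values are the normalized counts of the authors, read counts scaled for sequencing depth and not divided by gene length. The estimated depth was 24.0 to 42.5 M reads per sample (median 32.6), and 3 reads were worth 2.31 to 4.07 normalized counts, below which a value cannot be told from 0 by counting. The epithelial label of the cells was checked with 8 markers, whose summed level was 16027 to 294264 in parental cells and 1142 to 210783 in resistant cells. Cdh1, Krt8, Krt18, Krt19, Krt7 and Muc1 were detected in all 21 samples, while Epcam was listed at 0 in 20 of them. Of the 7 epithelial markers tested, Cldn4 and Muc1 were called lower in resistant cells, with log2 fold changes of -6.46 and -5.57. The libraries were sequenced on more than 1 machine model and their assignment was not given, so no comparison within machines was made.

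**Figure D1:**
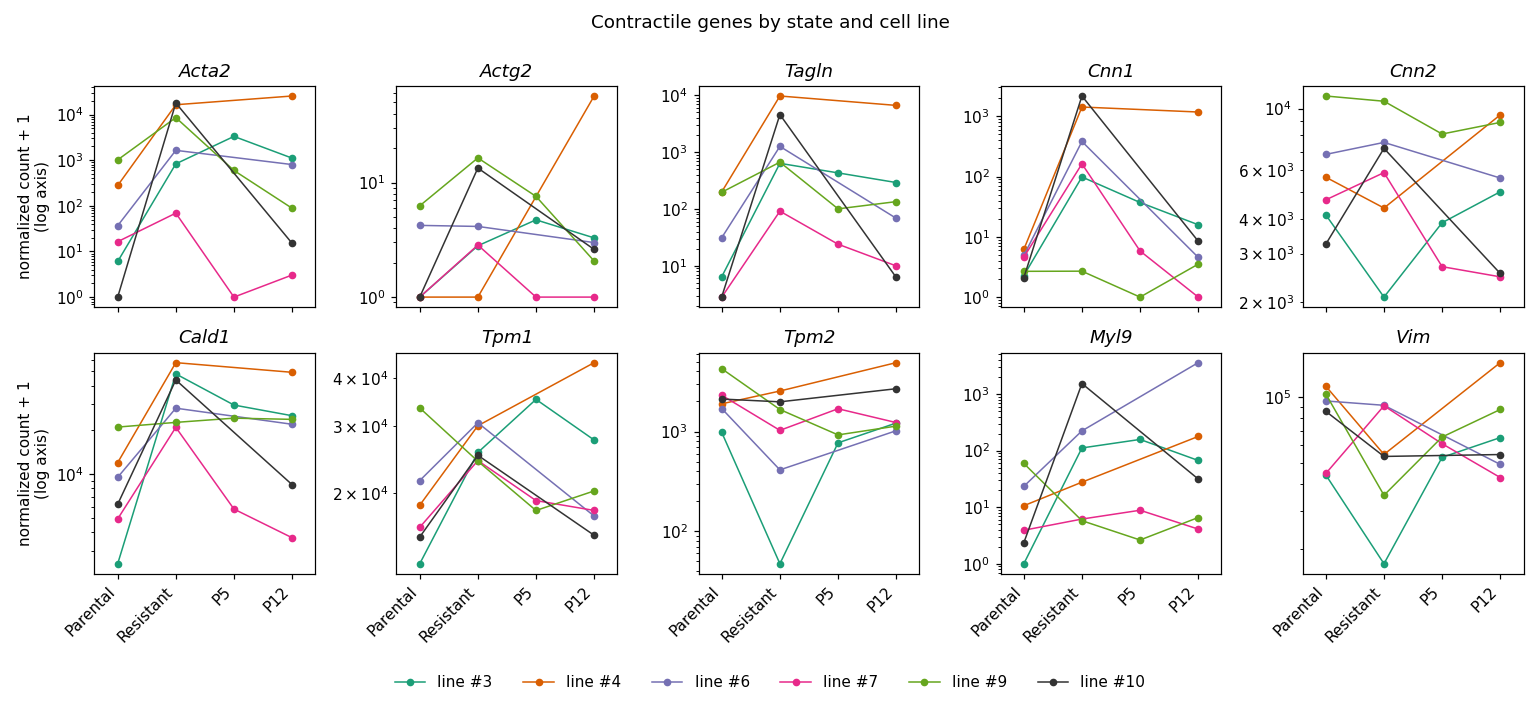
Normalized count plus 1 on a log axis (a separate scale in each panel) for each of the 10 genes, by state, with 1 coloured line and 1 point per sample for each cell line; lines #4, #6 and #10 have no P5 sample and run straight from Resistant to P12. Acta2, Tagln, Cnn1 and Cald1 go up from Parental to Resistant in every line, Cnn1 in line #9 only from 1.68 to 1.69.

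The actins come first. Acta2 (ENSMUSG00000035783.9, chr19:34241090-34255590, minus strand, GRCm38) encodes smooth muscle alpha-actin, the usual marker of activated fibroblasts and smooth muscle cells. Its parental values ran from 0 in line #10 and 5.03 in line #3 through a median of 25.5 to 1015 in line #9. Resistant values ran from 68.2 in line #7 through a median of 5107 to 17910 in line #10. The states overlapped, since the resistant sample of line #7 lay below the parental samples of lines #4 and #9. Within lines the picture was uniform in direction: 35.7 became 1642 in line #6, 278 became 16393 in line #4 and 15.4 became 68.2 in line #7. In line #10 the parental sample held no read, so that the resistant value was at least 7312-fold higher than the floor of 3 reads in that library. The mean log2 fold change was 6.29 (SE 2.27, adjusted p = 0.0661 by limma), a 78.4-fold difference on the scale of log2(value + 1), and it did not pass in either fit (adjusted p = 0.0122 with the cell line as block).

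Actg2 (ENSMUSG00000059430.14, chr6:83512905-83536265, minus strand) encodes the gamma-actin of visceral smooth muscle and was close to undetected. It reached 10 normalized counts in 3 of 21 samples, namely 12.4 in resistant cells of line #10, 15.4 in resistant cells of line #9 and 55.9 in P12 cells of line #4. In 5 of 6 parental and 5 of 6 P12 samples it lay at or under the floor of 3 reads. The log2 fold change of 1.35 between resistant and parental cells (SE 0.90, adjusted p = 0.342) therefore rests on very few reads. Acta2 and Actg2 share no stretch of 31 bases with each other, and 1.39% and 1.21% of their 31-base words occur in another gene, so little of their sequence leaves room for reads to be exchanged with other actins.

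The proteins on the thin filament follow, beginning with transgelin. Tagln (ENSMUSG00000032085.5, chr9:45929619-45936058, minus strand) encodes transgelin, also called SM22-alpha. It went from 5.44 to 634 in line #3, from 199 to 9708 in line #4 and from 30.3 to 1259 in line #6. It went from 1.81 to 90.4 in line #7, from 196 to 665 in line #9 and from 1.86 to 4574 in line #10. Each resistant sample thus exceeded its own parental sample by 1.76 to 10.64 on the log2 scale, with the smallest step in line #9. The log2 fold change was 5.83 (SE 1.58, adjusted p = 0.0174), which missed the threshold of 0.01, and with the cell line as block the SE was 1.02 and the adjusted p was 0.000912, past it. Tagln overlaps Pcsk7 and Gm48529 on the opposite strand. The library kit keeps the strand, but whether the counting used it is not given in the sources used here.

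Cnn1 (ENSMUSG00000001349.5, chr9:22099216-22109630, plus strand) encodes calponin 1, an inhibitor of actomyosin that is largely restricted to smooth muscle. Parental values were 1.10 to 5.17 in the 6 lines, and 3 of them lay at or under the floor. Resistant values were 97.3 in line #3, 1420 in line #4, 380 in line #6, 161 in line #7, 1.69 in line #9 and 2164 in line #10. Cnn1 was thus near the limit of detection in all parental samples and well above it in 5 resistant samples, line #9 being the exception. The log2 fold change was 5.79 (SE 1.55, adjusted p = 0.0164), and with the block it passed (adjusted p = 0.00308). Without line #9 it also passed in the fit without the block (log2 fold change 6.94, adjusted p = 0.00443).

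Cald1 (ENSMUSG00000029761.16, chr6:34598500-34775473, plus strand) encodes caldesmon, which is made in a smooth muscle and a nonmuscle form from the same gene. Unlike the genes above it was well detected before treatment, at 2442 to 20888 in parental cells. Resistant cells held 20797 to 57444. The value went from 2442 to 48124 in line #3, from 11954 to 57444 in line #4 and from 6217 to 43762 in line #10. The smallest difference was in line #9, from 20888 to 22481. The log2 fold change was 2.19 (SE 0.59, adjusted p = 0.0165), a 4.56-fold difference, and it passed with the block (adjusted p = 0.00316). Gene-level counts do not tell its 18 annotated transcripts apart, so which form rose was not measured.

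The tropomyosins, coiled coils that lie along the actin filament, went in different directions. Tpm1 (chr9:67022590-67049406, minus strand, 21 annotated transcripts) stood at 13098 to 33393 in parental and 24244 to 30544 in resistant cells. It was higher in 5 of 6 lines, by 0.50 to 0.96 on the log2 scale, and lower in line #9, where it went from 33393 to 24244. The mean difference of 0.50 (SE 0.25, adjusted p = 0.189) did not pass. Tpm2 (chr4:43514711-43523765, minus strand), the beta-tropomyosin, was lower in 5 of 6 resistant samples. The lowest was line #3, where 977 became 46.3, and the exception was line #4, where 1895 became 2546. In line #10 the difference was small, from 2115 to 1983. Its log2 fold change was -1.43 (SE 0.73, adjusted p = 0.197). Tpm1 and Tpm2 share 9 of their 31-base words, 0.134% of those of Tpm1 and 0.299% of those of Tpm2.

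Cnn2 (chr10:79988584-79996062, plus strand) encodes the calponin that is widely made outside smooth muscle. It lay between 2089 and 11097 in all parental and resistant samples and was higher in 3 lines and lower in 3, with a log2 fold change of 0.03 (SE 0.42, adjusted p = 0.971). Myl9 (chr2:156775420-156781658, plus strand) encodes the smooth muscle type of the myosin regulatory light chain. It went from 0 to 110 in line #3, from 22.3 to 222 in line #6 and from 1.35 to 1530 in line #10. It went from 9.61 to 26.7 in line #4 and from 2.91 to 5.16 in line #7, and in line #9 it went down from 58.3 to 4.77. The mean log2 fold change of 3.01 (SE 1.64, adjusted p = 0.233) was thus carried by few lines, and it was 1.75 without line #10 and 4.29 without line #9.

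Vim (chr2:13573927-13582826, plus strand) encodes vimentin, the intermediate filament of mesenchymal cells. It was the member with the highest level per kilobase of exon in every state, and in parental cells it already stood at 43833 to 112066 with a median of 90916. Resistant cells held 17149 to 91600 with a median of 53913. It was lower in 5 of 6 lines, from 43833 to 17149 in line #3 and from 103123 to 35381 in line #9, and went up in line #7 from 44560 to 91134. The log2 fold change of -0.61 (SE 0.38, adjusted p = 0.304) did not pass. In 5 lines Vim and Acta2 thus differed in opposite directions, although both are read as mesenchymal features. In 1 of these, line #6, Vim differed little, from 95909 to 91600 (-0.07 on the log2 scale).

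**Figure D2:**
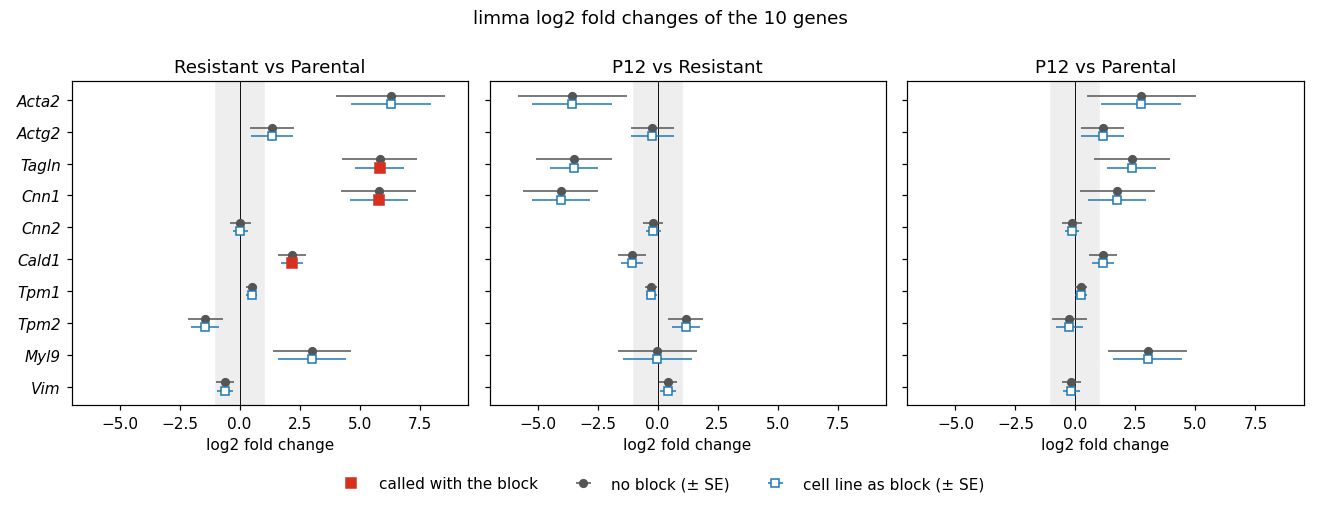
Log2 fold changes from limma (points) with their SE (bars) for the 10 genes in 3 comparisons, without a block (grey circles) and with the cell line as block (blue squares, filled red where called); the grey band marks changes of less than 1 in either direction. Between resistant and parental cells Tagln, Cnn1 and Cald1 are called with the block, and no gene is called in the comparisons with P12.

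Per kilobase of annotated exon, which allows levels to be compared between genes, the median normalized count in resistant cells was 11367 for Vim, 3907 for Tpm1, 2984 for Cald1, 2654 for Cnn2 and 2326 for Acta2. It was 484 for Tagln, 462 for Tpm2, 99.0 for Cnn1 and 59.0 for Myl9, and Actg2 was the lowest. In parental cells the same quantity was 11.6 for Acta2, 8.98 for Tagln, 0.961 for Cnn1 and 5.39 for Myl9, below the 689 of Tpm2 and the 652 of Cald1. By these medians Acta2 was far below Cnn2 and Cald1 in parental cells and near them in resistant cells, while Cnn1 and Myl9 lay below both in each state. The resistant median of Acta2 falls in a gap between lines. Before division by length, lines #7, #3 and #6 held 68.2, 830 and 1642, and lines #9, #4 and #10 held 8572, 16393 and 17910. The exon lengths join all annotated transcripts of a gene and are longer than any 1 transcript.

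Over all genes tested, 5.3% (1023 of 19300) were called between resistant and parental cells, which required an adjusted p of less than 0.01 and a change of more than 1 on the log2 scale, 2.57% as higher in resistant cells. Among the 10 contractile genes the count was 0, and 4 of them (Acta2, Tagln, Cnn1 and Cald1) had an unadjusted p below 0.05. Over all genes tested, 5642 of 19300 had an unadjusted p below 0.05. With the cell line as block, 10.5% of all genes were called, 4.85% as higher, and 3 of the 10 contractile genes were called, all 3 higher. The median log2 fold change of the 10 was 1.77, with 8 above 0, beside -0.005 over all genes tested. With the block and 1 line left out in turn, an alternative chosen after seeing the data, Tagln was called without any of the 6 lines, and 1 to 3 of the 10 were called. Cnn1 was not called without lines #3, #6 or #10, and Cald1 was not called without lines #3, #4, #6 or #10.

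Markers of other cell types were read beside these values. The summed level of 10 fibroblast and stellate cell markers was 109 to 25223 in parental cells (median 552) and 519 to 581185 in resistant cells (median 124777). Of the 9 that could be tested none was called without the block, and Col1a1, Col3a1 and Postn were called higher with it. Col1a1 and Col3a1 had resistant medians of 29184 and 48157, while Pdgfra had a log2 fold change of -1.13 and Thy1 had medians of 17.4 in parental and 21.3 in resistant cells. Lum was listed at 0 in 14 of 21 samples and Col1a2 in 8, and Fap reached at most 54.1. The 6 pericyte markers summed to 54.2 to 1779 in parental and 253 to 16688 in resistant cells, with Kcnj8 at 0 in 17 samples. Mcam alone reached 16033 in resistant cells and was called higher with the block (log2 fold change 4.57). Rgs5 was lower in 6 of 6 lines, but its medians of 2.50 in parental and 1.01 in resistant cells lay near or under the floor of 3 reads. Most of its differences are thus not resolved by counting. The median of Cspg4 was 28.8 in parental and 5.75 in resistant cells, and neither Rgs5 nor Cspg4 was called in this comparison. Of 4 endothelial, 4 immune, 2 skeletal muscle and 2 acinar markers tested, 1 was called in this comparison, the endothelial receptor Tek (5.90 higher on the log2 scale, adjusted p = 0.00200). The part of these markers in the differences was not tested, and in bulk RNA more cells of a type and more RNA per cell cannot be told apart.

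The genes that define a differentiated smooth muscle cell were checked next. Myh11, the smooth muscle myosin heavy chain, was listed at 0 in all 6 resistant and all 6 P12 samples and reached at most 4.51 in any sample. Des (desmin) reached at most 88.4, Lmod1 (leiomodin 1) at most 294 in a resistant sample with a resistant median of 0, and Actc1, the cardiac alpha-actin, at most 3.09. Smtn (smoothelin) was present in every sample and had a log2 fold change of 1.74 (adjusted p = 0.0194, and 0.00274 with the block, which called it higher). It was higher in 6 of 6 lines, with a parental median of 2039 and a resistant median of 7796. The higher Acta2, Tagln and Cnn1 of resistant cells thus stood beside a smooth muscle myosin heavy chain that was not detectable at this depth.

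A list of 22 other smooth muscle genes had 18 that could be tested, of which 2 rose and 1 fell in resistant cells. Csrp1, a LIM protein of actin filaments, rose from a median of 2629 to 13573 (log2 fold change 2.16, adjusted p = 0.000995). Fhl1, a LIM protein of muscle, rose from a median of 17.6 to 6690 (7.28 on the log2 scale, adjusted p = 2.54e-05), and the lowest resistant value of 1092 lay above the highest parental value of 170. Csrp2, a relative of Csrp1 that is typical of smooth muscle, fell from 2880 to 531 (log2 fold change -1.98, adjusted p = 0.00504). The median log2 fold change of the list was 1.21, with 13 of 18 above 0. With the block Smtn was called as well.

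The close relatives of the members, which are the nonmuscle actins, light chains, tropomyosins, calponin 3 and the other transgelins, had a median log2 fold change of 0.02. Of 10 tested, 1 was called, Tpm3, which fell from a median of 25723 to 12715 (log2 fold change -1.01, adjusted p = 0.00279). Among 15 genes of nonmuscle actomyosin and cell adhesion, 2 rose and none fell. These were Zyx (zyxin, 1.92 on the log2 scale, adjusted p = 0.000570) and Tns1 (tensin 1, 3.60, adjusted p = 0.00616), both proteins of focal adhesions, and the median of the list was -0.02. Of 8 other intermediate filament genes none was called without the block, and with it Krt8 and Krt18, the keratins of simple epithelia, were called lower.

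**Figure D3:**
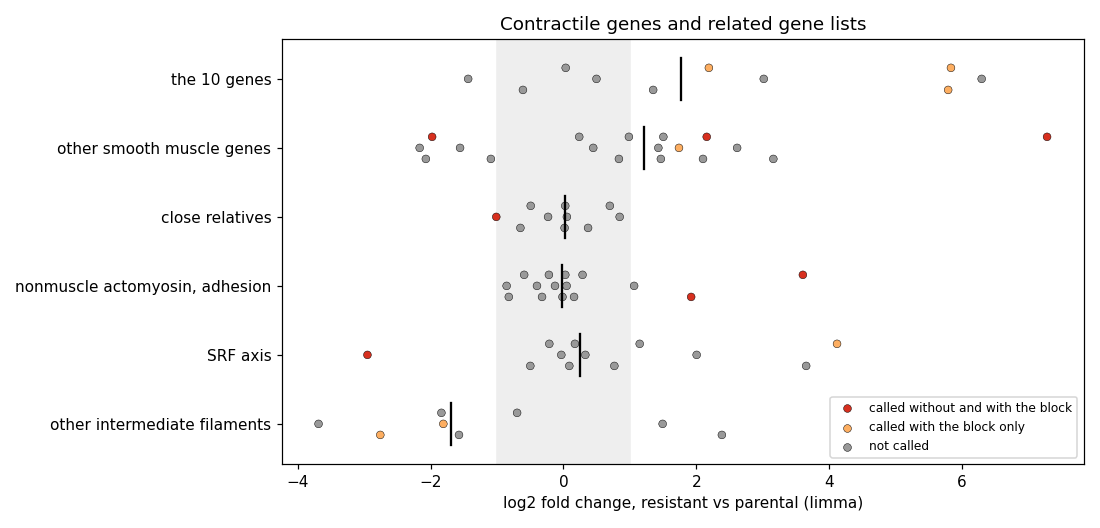
Log2 fold change between resistant and parental cells (limma) for each tested gene (points, coloured by whether it was called) of the 10 contractile genes and of 5 related gene lists; black bars are list medians, and the grey band marks changes of less than 1. The 10 genes have a median of 1.77 and the other smooth muscle genes of 1.21, while the close relatives have a median of 0.02.

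The regulators of these genes were followed at the RNA level only. Srf had a log2 fold change of -0.21 between resistant and parental cells (adjusted p = 0.635), with medians of 1214 and 1077 in parental and resistant cells. Its cofactors Mrtfa and Mrtfb, listed as Mkl1 and Mkl2, had changes of 0.33 (adjusted p = 0.455) and 0.17 (adjusted p = 0.661). Myocd, the cofactor of smooth and heart muscle, stayed at a resistant median of 10.2 with 1 sample at 455 (log2 fold change 2.00, adjusted p = 0.157). Of the 12 SRF-related genes tested, 1 was called without the block, Elk3, a ternary complex factor. With the block Prkg1, a kinase activated by cGMP that relaxes smooth muscle, was also called, higher in resistant than in parental cells (log2 fold change 4.12, adjusted p = 0.00956) and lower in P12 than in resistant cells (-4.92, adjusted p = 0.00637). Elk3 fell from a median of 3711 to 401 in resistant cells (log2 fold change -2.95, adjusted p = 0.000222) and rose to 3722 in P12 (2.95 above resistant cells, adjusted p = 0.000492), in 6 of 6 lines each time.

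To show what SRF could bind, the promoters of the members were searched for CArG boxes, and each match is printed with 10 bases on either side, the box in capitals. RefSeq start sites (GRCm38.p6) with 250 bases before and 50 after were at hand for 8 of the 10 members, in 9 windows. Tagln and Actg2 were not among them. An exact box was found in Myl9 and Cnn2, and boxes with at most 1 mismatch in 5 of the 8 members. Over all 32851 windows of this length 1.63% held an exact box and 21.1% a box with at most 1 mismatch, so the second kind is common. The box reads the same class of letters on both strands, and positions are counted from the start site.
Myl9 at -161 (exact; chr2:156775293-156775322, plus strand): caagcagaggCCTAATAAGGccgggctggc
Cnn2 at -56 (exact; chr10:79988534-79988563, plus strand): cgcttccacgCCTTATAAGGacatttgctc
Acta2 at -84 (chr19:34255438-34255467, minus strand): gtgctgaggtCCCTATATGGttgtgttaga
Acta2 at -34 (chr19:34255388-34255417, minus strand): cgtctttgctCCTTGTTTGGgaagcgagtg
Myl9 at -99 (chr2:156775355-156775384, plus strand): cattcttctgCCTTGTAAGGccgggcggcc
Cald1 at -203 (chr6:34598291-34598320, plus strand): acggtttcaaGCTTTTTAGGacttggtttt
Tpm1 at -221 (chr9:67049415-67049444, minus strand): gctcgggtccCCATATATAGtcatatccac
Tpm1 at -80 (chr9:67049274-67049303, minus strand): acaagcttttCCAAAAAAGTattggctgtc
Of the members with an exact box, Cnn2 had a log2 fold change of 0.03 between resistant and parental cells and Myl9 of 3.01, and neither was called. Cnn1, called with the block, had no match, which says only that these letters are not in its window. The letters TGANTCA, the core of the AP-1 site, were found in 1 member, Cald1, and in 7.81% of all windows. In GENCODE M21 both Acta2 boxes and the nearer Tpm1 box lie inside the annotated bounds of the gene, and the others lie before its annotated start. A match is a string of letters, and binding was not measured here.

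Withdrawal of the drug separated the lines. In P12 cells line #3 had 1108 normalized counts of Acta2, line #4 had 25483 and line #6 had 801, beside 2.05 for line #7, 87.4 for line #9 and 14.1 for line #10. Lines #3 and #4 were above their own resistant samples, by 0.42 and 0.64 on the log2 scale, and line #10 went from 17910 to 14.1, a log2 difference of -10.21. In lines #7 and #9 Acta2 ended below the parental sample, which had held 15.4 and 1015. The mean change from resistant to P12 cells was -3.55 (SE 2.27, adjusted p = 0.423), and the line differences ran from -10.21 to 0.64. All 10 genes were higher in P12 than in parental cells in lines #3 and #4, beside 4 of 10 in line #6, 3 in line #7, 2 in line #9 and 8 in line #10. These counts include P12 values at or under the floor of 3 reads, which are not told from 0. They are Actg2 in lines #3 (2.29) and #10 (1.61) and Cnn1 in line #9 (2.52).

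Tagln was lower in P12 than in resistant cells in 6 of 6 lines, with log2 differences from -9.51 to -0.55. It stood at 6635 in line #4 and 291 in line #3, beside 67.6 in line #6, 8.95 in line #7, 134 in line #9 and 5.26 in line #10. The mean change was -3.48 (SE 1.58, adjusted p = 0.221, and 0.0358 with the block), which did not pass in either fit. Cnn1 was lower in 5 of 6 lines. It remained at 1173 in line #4 and 14.9 in line #3 and was between 0 and 7.46 in the other lines, for a mean change of -4.04 (SE 1.55, adjusted p = 0.138, and 0.0396 with the block). Line #4 thus stayed near its resistant level of Acta2, Tagln and Cnn1, and line #10, with the largest differences between resistant and parental cells, came back to within 3.92, 1.13 and 2.01 of its parental sample on the log2 scale.

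P12 cells of lines #3, #4, #6 and #9 held 24963, 49360, 21826 and 23577 normalized counts of Cald1, and those of lines #7 and #10 held 3673 and 8456. These last values lay near the parental 4937 and 6217. Myl9 went its own way in line #6, where it reached 3584 in P12 cells after 222 in resistant cells, and in line #4, where it reached 177 after 26.7. Its mean change from resistant to P12 cells was -0.01 (SE 1.64) and reversed sign with the processing. Tpm2 was higher in P12 than in resistant cells in 5 of 6 lines, most in line #3 where 46.3 became 1215 (2.26-fold in the mean, adjusted p = 0.403). Vim was higher in 4 of 6 (mean 0.44, SE 0.38, adjusted p = 0.576).

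**Figure D4:**
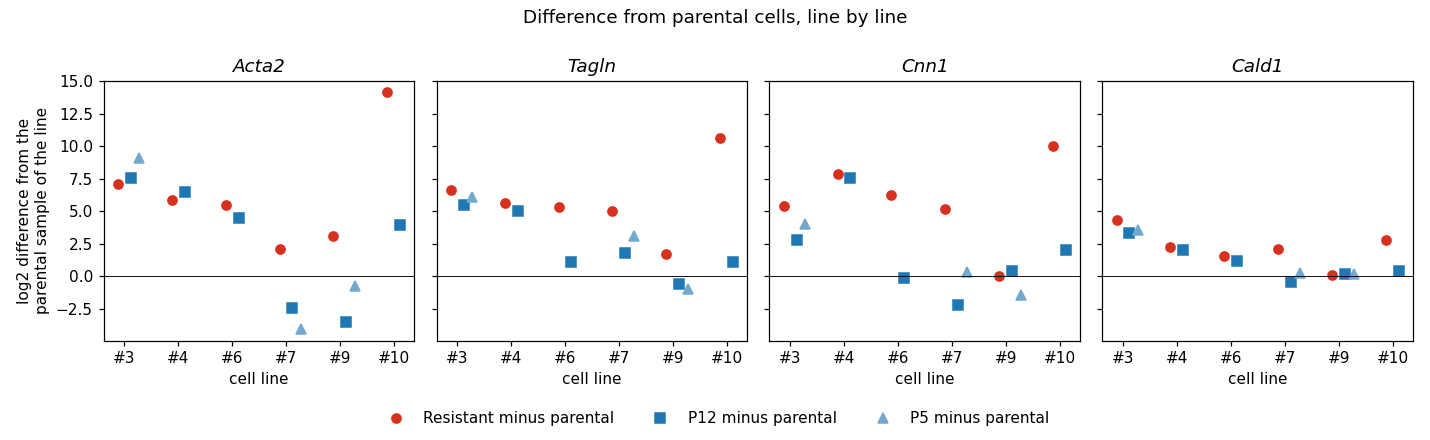
Log2 difference of the resistant (red circles), P12 (blue squares) and P5 (light blue triangles) sample from the parental sample of the same line, for Acta2, Tagln, Cnn1 and Cald1; each point is 1 pair of samples, so it has no error bar. Lines #3 and #4 keep P12 values well above the parental sample in all 4 genes, and Acta2 in lines #7 and #9 lies below it.

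Of the marker lists, the pericyte gene Rgs5 was called higher (6.53 on the log2 scale, adjusted p = 0.00135) and the endothelial gene Tek lower (-5.84) in P12 than in resistant cells. Their lists did not move as 1, since 2 of 4 tested pericyte and 2 of 4 tested endothelial markers were above 0. Mcam differed by -2.76 and Cdh5 by 2.70, neither called. With the block, the endothelial gene Pecam1 (1.39, adjusted p = 0.00464 by limma) and the acinar gene Prss2 (2.83, adjusted p = 0.00918) were called higher. No contractile gene was called between these states, where 2.13% of all genes were (4.52% with the block). In that comparison 2 of the 10, Tagln and Cnn1, had an unadjusted p below 0.05, beside 3821 of all 19300 genes tested, a similar share. Between P12 and parental cells, 0.114% of all genes were called (0.523% with the block) and none of the 10. Of the 10, 0 had an unadjusted p below 0.05 without the block, beside 2953 of all 19300 genes, and 2 with it. The number over all genes with the block was not counted. The mean log2 differences from parental cells were 2.74 for Acta2, 2.35 for Tagln, 1.75 for Cnn1, 1.13 for Cald1 and 3.00 for Myl9. These are means over lines that differ widely, and the SE of the difference was 2.27 for Acta2, 1.58 for Tagln, 1.55 for Cnn1, 0.59 for Cald1 and 1.64 for Myl9.

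The P5 samples cover lines #3, #7 and #9. In that order of lines the values of Acta2 were 3319, 0 and 594, those of Tagln 430, 23.0 and 99.4, and those of Cnn1 36.1, 4.82 and 0. Line #3 was thus high in both withdrawal states. In line #7 Cald1 had gone from 20797 in resistant cells to 5763 in P5 and 3673 in P12. No contractile gene was called against resistant cells (0.378% of all genes were), against parental cells (0.0259%) or against P12 cells (0%). An unadjusted p below 0.05 was reached by 1 contractile gene in the first comparison, Cnn1, and by none in the others, and with the block by 1, 2 and 0 of them. Over all 19300 genes, 2976, 2003 and 130 reached it in these comparisons without the block. The number over all genes with the block was not counted. In these comparisons 3 lines stand against 6, and for lines #7 and #9 the labels disagree on the passage.

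Parental cells were not alike before treatment. Line #9 had the highest parental value of 7 of the 10 genes (Acta2, Actg2, Cald1, Cnn2, Myl9, Tpm1 and Tpm2), and its parental Cdh1, the epithelial cadherin, was 816 beside 26491 to 53229 in the other 5 lines. In resistant cells of this line 5 of the 10 genes were higher and 5 lower than in parental cells. Line #7 had the lowest resistant Acta2, Tagln and Cald1, and its resistant Cdh1 of 16401 was the highest of the 6. Cdh1 fell from a parental median of 30049 to 58.4 in resistant cells, in 6 of 6 lines (log2 fold change -7.11, SE 1.92, adjusted p = 0.0173, and 0.000175 with the block, which called it lower). In P12 cells Cdh1 stood at 2808, 992 and 1516 in lines #3, #4 and #6 and at 18598, 44.0 and 14006 in lines #7, #9 and #10, above the resistant and below the parental sample in each line.

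The share of the variance that the cell line and the state took on the log2 scale described the same split among the members. It was taken over the parental, resistant and P12 samples, without P5. For Cnn1 the state took 45.9%, for Tagln the state took 43.2% and the line 39.6%, for Cald1 46.4% and 26.2% and for Acta2 34.6% and 37.1%. For Cnn2 the state took 1.16% and the line 58.0%, and for Vim 12.8% and 35.2%. Neither line nor state took the remaining 40.8% for Cnn2 and 52.0% for Vim. For Cnn2 the line thus took a larger share than the state. These shares were not corrected for the numbers of lines and states.

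**Figure D5:**
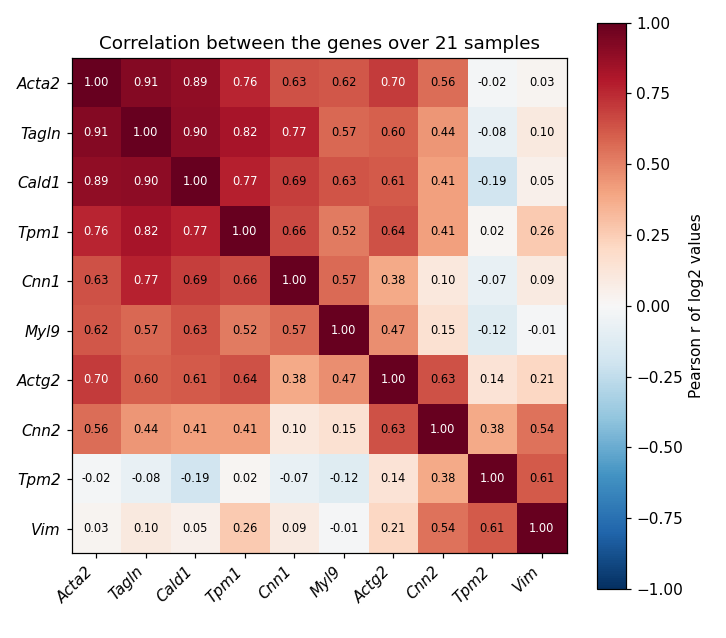
Pearson correlation of log2(value + 1) between each pair of the 10 genes over the 21 samples, with the coefficient in each cell; red is positive and blue negative. Acta2, Tagln and Cald1 form the tightest block, at 0.89 to 0.91, while Tpm2 and Vim lie near 0 with each of them.

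Across samples Acta2, Tagln and Cald1 ran closely together. Pearson's r over the 21 samples, which share lines and the same normalization, was 0.914 for Acta2 and Tagln, 0.898 for Tagln and Cald1 and 0.887 for Acta2 and Cald1, beside a median of 0.521 over the 45 pairs. Tagln and Tpm1 reached 0.821, the only other pair above 0.8. After the mean of each line was subtracted, Tagln and Cnn1 had an r of 0.914. Vim had an r of 0.03 with Acta2 and of 0.10 with Tagln, and its closest partner among the members was Tpm2 (0.614). These coefficients describe the 21 samples, which are not independent.

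Among all tested genes, those whose log2 profile was most like that of Acta2 over the 21 samples were Msrb3 (r 0.936), Rcn3, Fstl1, Tagln and Pdzd4. For Tagln they were Acta2, Dlc1 (0.901), Msrb3, Cald1 and Gm38391. For Cnn1 they included Dhdds (0.878), Uchl1, Vgll3 and Hey2, and for Actg2 Enox1 (0.827), Lmod1, Tubb3, Ttc28 and Baalc. Vim had Ltbp1 (0.825), Tsen34, Poc1a, Lig1 and Pcbp3. Only Acta2 and Tagln had another member among these 5. With the line means subtracted, the first place went to Abca9 for Acta2 (0.931), Coro2b for Tagln (0.948), Tagln for Cnn1 (0.914), Enox1 for Actg2 (0.855) and Ehd4 for Vim (0.890).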

How the data were processed

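RNA from 21 samples of 6 murine PDAC cell lines had been prepared with a stranded mRNA kit from 100 ng. The deposited table holds signal values: per gene, read counts estimated by the authors with salmon 0.12 after trimming (Skewer), summed to genes with TXImport and scaled with DESeq2 1.18. The submitters' processing notes name the build mm10. Samples were grouped by the labels, and the cell line number pairs the states because it is the same line. Deviations from the state means correlated within lines (mean r 0.241 between parental and resistant, 0.457 between resistant and P12).

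Log2(value + 1) was tested with limma 3.58.1 (R 4.3.3, trend) in 1 fit of all 21 samples without a covariate. Genes with at least 10 in at least 3 samples entered (19300, with all 10 members), p-values were adjusted over all of them (Benjamini-Hochberg), and a gene was called at less than 0.01 with a log2 difference of more than 1 in either direction. The steps were tested on simulated data. Depth was estimated from the step between low values, on which 55.1% to 73.6% of them fell, so whole reads were not recovered. Alternatives were pseudocounts of 0.5 and 8, no filter, a mean of at least 100, upper quartile scaling, no trend, a looser threshold, the compared states alone, the cell line as block, and each line left out. Gene models are from GENCODE M21, promoters from RefSeq.

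The genes named are the 10 members, genes called in related lists, fixed smooth muscle and SRF genes, the 5 closest profiles of 5 members, and Cdh1. The members and lists were chosen with earlier results of these data known. P-values without the block measure the spread between lines, with 1 library per line and state. With the block they measure how much the differences between states vary from line to line. Some items are not reported here.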

Additional observations from a re-analysis of the deposited data

Results flagged for a closer look

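Of 30 groups of 6 samples tested for a sample far from the others, 1 was flagged, and chance alone flags about 1 in 20. Actg2 in P12 cells of line #4 stood at 55.9 normalized counts, and the next sample of that state at 2.29. The same sample also held the highest P12 value of 8 other members, among them Acta2 (25483) and Tagln (6635).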

How the results depend on the processing

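No contractile gene was called between resistant and parental cells in the fit without a block. The count became 3 with the replicate block (Tagln, Cnn1 and Cald1) and 3 at an adjusted p below 0.05, 1 with the compared states alone (Cald1) and 1 with these states and the block (Tagln). Leaving out 1 line gave 0 to 1 (Cald1 without line #7, Cnn1 without line #9). Leaving out 1 line with the block, chosen after seeing the data, gave 1 without lines #3, #6 or #10, 2 without line #4 and 3 without lines #7 or #9. The count was 0 in the other 5 comparisons under every alternative run, and the block changed no other call of a member. Small log2 differences lost their direction, with the same values with and without the block where a line was left out. Cnn2 between resistant and parental cells was -0.0090 with upper quartile scaling and -0.19 to 0.24 with 1 line left out (-0.025 without line #7). Between P12 and resistant cells Actg2 was 0.026 with a pseudocount of 8 and -0.30 to 0.048 without lines #3, #6 or #7, and it was not tested without lines #4, #9 or #10, where it missed the filter. Cnn2 was -0.46 to 0.090 with 1 line left out (0.040 without line #7). Myl9 was 0.036 with a pseudocount of 8, 0.079 with upper quartile scaling and -0.81 to 1.11 with 1 line left out (0.14 without line #3, 0.11 without line #7). Between P12 and parental cells Cnn2 was -0.32 to 0.015 and Tpm2 -0.58 to 0.076. The cause was not tested. The adjusted p of Acta2 between resistant and parental cells ran from 0.0119 (block, without line #7) to 0.244. At this depth values under 2.31 to 4.07 are not told from 0, which covers most Actg2 and Myh11 values.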
